A study of Mus musculus with 6 samples.

Results

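The collagen genes were examined in mouse tongue after treatment with 4-nitroquinoline 1-oxide (4NQO), a DNA-damaging carcinogen. They were taken by name, as every gene whose symbol on the array reads Col, a number, a and a number, and 42 of the 18193 genes measured fulfilled this rule. The genes were divided into 6 classes by the architecture of the protein, namely 11 fibrillar collagens, 8 collagens of basement membranes, 9 fibril-associated collagens with interrupted triple helices (FACIT), 4 transmembrane collagens, 5 beaded filament collagens and 3 short chain collagens, which left Col7a1 (anchoring fibrils) and Col26a1. The naming rule did not use any measured value, although the collagen genes were chosen with earlier results of these data known. For Col6a6 and Col28a1 no probe set of their own was found.

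Collagens are secreted as triple helices of 3 alpha chains. In connective tissue, fibroblasts make the fibrils of types I, III and V, whose chains are trimmed, assembled and crosslinked outside the cell, while FACIT collagens sit on the fibril surface. Type IV forms the sheet of the basement membrane under every epithelium and around muscle fibers and vessels. At the base of a squamous epithelium, collagen XVII spans the membrane of basal keratinocytes within hemidesmosomes, and collagen VII anchors the basement membrane to the stroma.

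Both groups were adult C57BL/6J mice, an inbred laboratory strain, without any transgene or deletion in the labels. The 4NQO group received 100 μg/ml in drink for 8 weeks, and the control group was left untreated. There were 3 tongues per group, with 1 array for each, and the replicates are numbered control 1 to 3 and 4NQO 1 to 3. Total RNA was taken from the tongue without separation of its tissues. The labels do not name litters or cages, so whether these differed between the groups is not known. The p-values set the difference between groups against the spread between tongues within groups.

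The values are log2 signals of single probe sets, so that a difference of 1 is a 2-fold change. Array medians lay between 4.45 and 4.60. In each tongue the markers of its main tissues gave high signals: the mean log2 signal lay between 11.71 and 12.63 for 8 skeletal muscle markers and between 10.99 and 11.59 for 5 basal keratinocyte markers. As a sign of RNA or labelling quality, the log2 signals at the 3′ and 5′ ends of Gapdh and actin were compared. For Gapdh the 3′ end exceeded the 5′ end by 1.67 in control 3 and by 1.07 in 4NQO 2, and by 0.086 to 0.47 elsewhere. For actin the excess was 1.12 in 4NQO 1, 1.01 in control 3 and 0.95 in 4NQO 2, and 0.55 to 0.83 elsewhere. Control 3 and 4NQO 2 also had the lowest means of the skeletal muscle markers, 11.77 and 11.71. In these arrays Myh2 read 5.43 and 5.01, against 8.49 to 9.36 elsewhere. Myh1 read 10.71 and 11.02, against 12.01 to 12.39 elsewhere, and the other muscle markers differed less. Salivary gland markers also split the tongues within both groups, with the mean log2 signal of 5 markers at 8.59 in control 2 and 9.36 in 4NQO 3 against 3.95 to 6.61 in the other arrays. Because each probe set has its own brightness, signals are compared between tongues and not between genes. A collagen gene is called bright here when its mean over all 6 arrays is at or above the mean array median of 4.55, which held for 27 genes, and dim in the 15 other cases, where the signal is not shown to be above background.

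Type IV chain genes lie in pairs that are read in opposite directions, and their promoters are shown because the paired genes are compared below. RefSeq windows of GRCm38.p6 (250 bases before to 50 after a start site) were found for 33 of the 42 collagen genes, 36 windows in all. In the sequences, written 5′ to 3′ on the strand of the gene, capitals mark matches to any of 3 promoter motifs, each searched on both strands. The GC box was searched as GGGCGG, which is a binding motif of Sp family factors. The CCAAT box was searched by the letters of its name, and the TATA box was searched as TATAAA. The start sites of Col4a5 and Col4a6 are 1343 bases apart on chromosome X, and those of Col4a1 and Col4a2 are 21 bases apart on chromosome 8, where their windows share 78 bases.
Col4a5 (chrX:141475169-141475468, plus strand): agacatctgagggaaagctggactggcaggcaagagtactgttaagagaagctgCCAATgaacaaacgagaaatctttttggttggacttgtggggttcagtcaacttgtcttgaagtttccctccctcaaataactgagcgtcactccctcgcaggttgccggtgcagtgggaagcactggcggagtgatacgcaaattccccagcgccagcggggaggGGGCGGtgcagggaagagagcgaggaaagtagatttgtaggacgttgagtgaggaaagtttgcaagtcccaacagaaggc
Col4a6 (chrX:141474027-141474326, minus strand): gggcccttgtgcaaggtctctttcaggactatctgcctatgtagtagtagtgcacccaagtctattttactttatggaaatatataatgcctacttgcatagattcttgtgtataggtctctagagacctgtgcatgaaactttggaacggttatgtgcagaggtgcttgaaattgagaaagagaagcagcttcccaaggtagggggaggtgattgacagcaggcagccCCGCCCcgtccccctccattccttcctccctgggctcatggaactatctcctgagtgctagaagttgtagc
Col4a1 (chr8:11312777-11313076, minus strand): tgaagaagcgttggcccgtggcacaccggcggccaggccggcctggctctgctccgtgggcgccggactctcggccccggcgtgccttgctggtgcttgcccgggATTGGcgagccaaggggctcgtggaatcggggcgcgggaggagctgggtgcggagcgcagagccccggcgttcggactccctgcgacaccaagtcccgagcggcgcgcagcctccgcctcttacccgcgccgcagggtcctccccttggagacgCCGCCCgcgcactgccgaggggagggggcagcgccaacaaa
Col4a2 (chr8:11312555-11312854, plus strand): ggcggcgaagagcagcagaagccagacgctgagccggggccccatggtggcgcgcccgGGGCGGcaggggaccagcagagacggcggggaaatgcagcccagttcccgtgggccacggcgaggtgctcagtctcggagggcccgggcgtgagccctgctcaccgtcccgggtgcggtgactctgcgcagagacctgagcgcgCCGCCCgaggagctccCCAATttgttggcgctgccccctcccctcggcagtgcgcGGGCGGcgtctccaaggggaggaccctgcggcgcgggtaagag
None of these 4 windows holds a TATA box, and each holds at least 1 GC box. The GC box within the last 50 bases of the Col4a2 window is the one that the Col4a1 window shows as CCGCCC. The promoter of Col1a2, the fibrillar collagen gene with the clearest separation between groups, is shown beside them.
Col1a2 (chr6:4505368-4505667, plus strand): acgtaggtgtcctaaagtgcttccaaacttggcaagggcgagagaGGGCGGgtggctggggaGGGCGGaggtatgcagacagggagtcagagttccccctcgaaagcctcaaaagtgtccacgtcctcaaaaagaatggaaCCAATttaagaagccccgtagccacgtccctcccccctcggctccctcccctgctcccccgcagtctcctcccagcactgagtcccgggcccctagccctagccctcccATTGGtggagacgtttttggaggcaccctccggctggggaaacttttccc
It holds 2 GC boxes and 2 CCAAT boxes. Over all collagen windows a GC box was found in 22 of 36 (61.1%), against 35.7% of 32851 windows of all genes. For the CCAAT box the shares were 36.1% and 37.4%, and for the TATA box 13.9% and 13.6%. A match describes these letters and is no evidence of a bound factor.

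None of the 42 collagen genes passed an adjusted p under 0.05 (Benjamini-Hochberg over 18193 genes, limma), a threshold that 24 genes (0.132%) passed. The smallest adjusted p among them was 0.311 (limma), for Col4a6. At an unadjusted p under 0.05, 1 collagen gene was higher in 4NQO-treated tongue (Col11a1) and 3 were lower (Col1a2, Col4a4 and Col4a6), against 6.68% and 3.74% of all genes. The groups did not overlap, with 4NQO higher, for Col18a1 and Col6a5 (9.59% of all genes). With 4NQO lower they did not overlap for Col1a2, Col4a4, Col4a5, Col4a6 and Col10a1 (7.18% of all genes). None of these counts is far from its background. With 3 tongues against 3, no permutation of a single gene can give a two-sided p below 0.1.

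The direction was uneven among the classes. Of the 42 genes, 28 (66.7%) had a lower mean in 4NQO-treated tongue, against 52.3% of all genes. Among the 27 bright collagen genes 20 (74.1%) were lower, against 49.9% of 11883 genes as bright. The median log2 difference, 4NQO minus control, was -0.14 for the collagen genes and -0.01 for all genes. By class it was -0.27 for fibrillar, -0.25 for basement membrane, -0.10 for FACIT, -0.10 for beaded filament, -0.20 for short chain and 0.19 for transmembrane collagens. These medians describe the classes without a test, since genes of one class share the same 6 tongues. They also moved with single tongues. Whichever tongue was left out, the median of all collagen genes stayed below 0 but shifted, from -0.24 without 4NQO 3 to -0.07 without control 3, and it was -0.03 without both control 3 and 4NQO 2. That of the basement membrane class was -0.51 without control 1, -0.08 without control 2, -0.14 without control 3 and -0.10 without 4NQO 2. It was -0.03 without both control 3 and 4NQO 2. For the 6 bright genes of this class it was again -0.25. Under a stricter cut, at the median of all gene means, it was -0.05. That cut also leaves out the bright genes Col4a5 and Col4a6. The beaded filament median ranged from -0.33 without control 1 to 0.07 without control 3, and the FACIT median from -0.13 without control 1 to 0.07 without control 3.

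**Figure D1:**
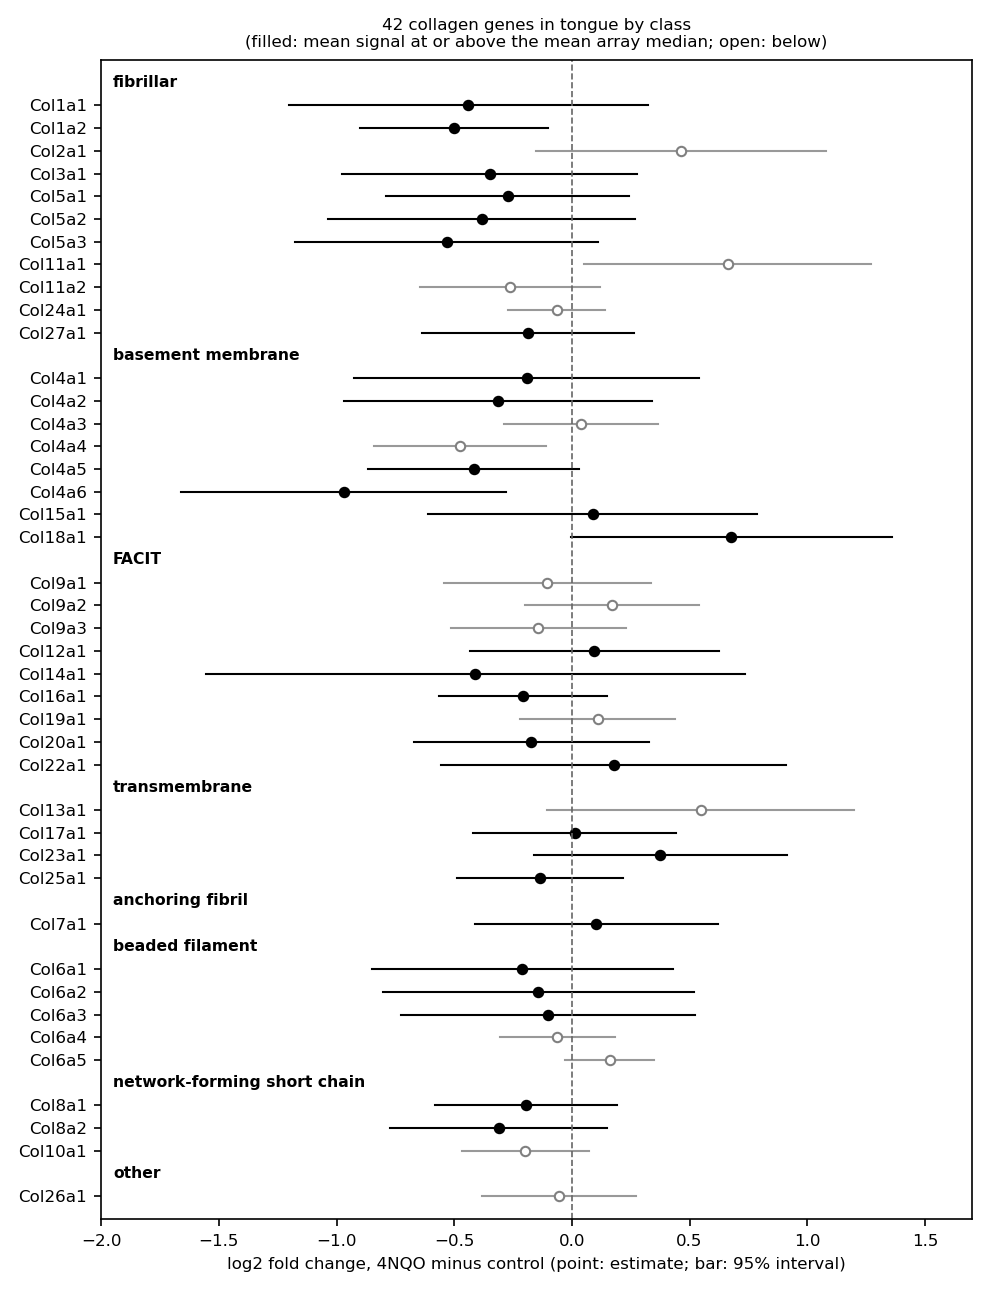
Log2 difference (4NQO minus control, horizontal axis) of the 42 collagen genes by class, with points for estimates and bars for 95% intervals from limma. Filled points are the 27 bright genes. All 7 bright fibrillar genes lie left of 0, and the intervals of Col1a2, Col4a4, Col4a6 and Col11a1 do not include 0.

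All 7 bright fibrillar collagens had a lower mean signal in 4NQO-treated tongue, with a median log2 difference of -0.38 and a range from -0.53 to -0.19. Type I collagen, the main fibril of connective tissue, is built from the products of Col1a1 and Col1a2. For Col1a2 the log2 signal was 11.13, 11.46 and 11.83 in control 1 to 3 and 10.94, 10.98 and 10.99 in 4NQO 1 to 3. Every 4NQO-treated tongue was thus below every control, and the treated tongues lay close together while the controls spread. The log2 difference was -0.50 (95% interval -0.90 to -0.10), a 1.42-fold lower signal, with an unadjusted p of 0.020 and an adjusted p of 0.377 (limma).

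Col1a1 read 8.30, 9.25 and 9.69 in the controls and 8.67, 8.37 and 8.87 after 4NQO. Here the groups overlapped, because control 1 was the lowest of all 6 tongues, and the difference of -0.44 had an interval from -1.20 to 0.32. Col3a1 encodes type III collagen, which accompanies type I in soft connective tissue. Its signal was 11.28, 11.47 and 12.08 in the controls and 10.74, 11.43 and 11.61 after 4NQO, a difference of -0.35 (-0.98 to 0.28).

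Type V collagen is built into type I fibrils and limits their diameter. Its 3 chain genes differed by -0.27 (Col5a1), -0.38 (Col5a2) and -0.53 (Col5a3), and in none did the interval exclude 0. Col5a3 came nearest, with 5.11, 5.90 and 6.15 in the controls and 5.05, 5.05 and 5.46 after 4NQO, and control 1 was again level with the treated tongues. Col5a2 read 9.31, 9.51 and 10.05 in the controls, and after 4NQO 8.68 in 4NQO 1 but 9.37 and 9.67 in 4NQO 2 and 4NQO 3. Col27a1, a fibrillar collagen known from cartilage, differed by -0.19 (-0.64 to 0.26).

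**Figure D2:**
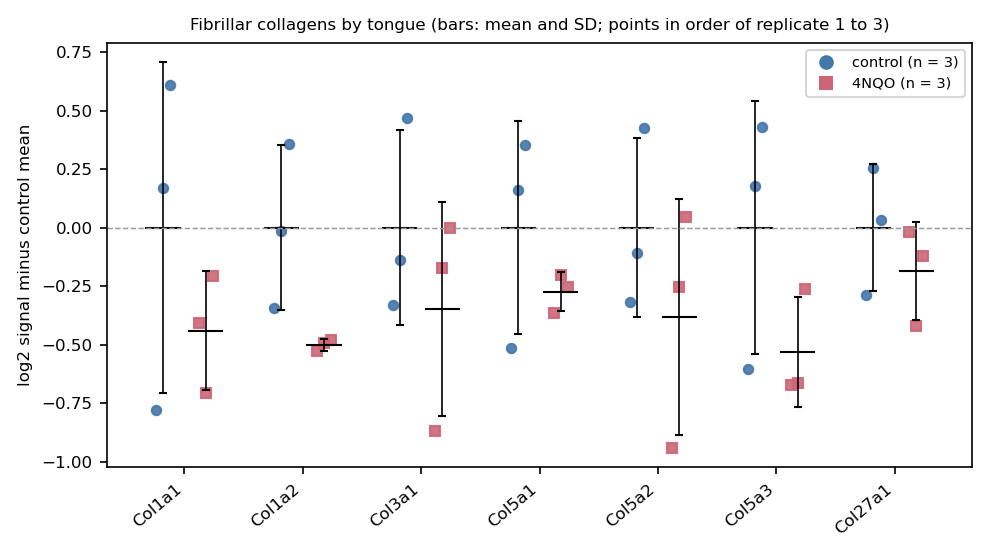
Log2 signal of the 7 bright fibrillar collagens minus the control mean of each gene (vertical axis) in 3 control and 3 4NQO-treated tongues, with mean and SD. For Col1a2 all 4NQO-treated tongues lie below the controls, while for each other gene at least 1 control lies below a treated tongue.

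The spread within the groups followed the tongue more than the gene. Control 1 was the lowest control in 22 of the 27 bright collagen genes and control 3 the highest in 18. Among treated tongues, 4NQO 3 was the highest in 21 and 4NQO 2 the lowest in 16. The median of the 7 bright fibrillar genes, relative to the control mean, was -0.34, 0.16 and 0.43 in control 1 to 3 and -0.53, -0.42 and -0.20 in 4NQO 1 to 3. Control 1 therefore lay inside the range of the treated tongues. Without control 1 the median of all fibrillar genes was -0.52, and without control 3, the array with the largest 3′ excess of Gapdh, it was -0.14. Without both control 3 and 4NQO 2 it was -0.15, and then 0 collagen genes were lower with an unadjusted p under 0.05.

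Markers of fibroblasts, the main source of fibrillar collagen, had the same sign. All 8 fibroblast markers were below 0, with a median log2 difference of -0.26, and their mean log2 signal ranged from 9.48 to 9.82 in control and from 9.00 to 9.69 in 4NQO-treated tongue. Among them Dcn, the fibril-binding proteoglycan decorin, differed by -0.20, and Clec3b (tetranectin) by -0.62 with an unadjusted p of 0.025 (limma). Their part in the fibrillar result was not tested. In RNA from whole tongue, fewer cells of a type and less RNA per cell cannot be told apart. Markers of dividing cells differed the other way: all 5 were higher, with a median log2 difference of 1.06 and means from 6.98 to 7.79 in control against 8.28 to 8.77 after 4NQO. The remaining cell type lists had medians of -0.15 (skeletal muscle), 0.17 (suprabasal keratinocyte), -0.02 (endothelium), -0.17 (smooth muscle and pericyte), -0.06 (tendon), 0.25 (adipocyte), -0.07 (Schwann cell), 0.23 (leukocyte) and -1.11 (salivary gland).

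The 4 remaining fibrillar collagens were dim. Col2a1, the collagen of cartilage, read 3.07, 3.42 and 3.42 in the controls and 3.19, 4.29 and 3.82 after 4NQO, a difference of 0.46 (-0.15 to 1.08). Col11a1, which joins type II in cartilage fibrils, read 2.39, 3.26 and 2.28 in the controls and 3.21, 3.10 and 3.60 after 4NQO. Its difference of 0.66 (0.05 to 1.27) had an unadjusted p of 0.037 and an adjusted p of 0.442 (limma). A second probe set of Col11a1 differed by -0.07. Both probe sets lay below the array median in every tongue, and control 2 lay among the treated tongues. Of 6 cartilage markers 5 were above 0, with a median of 0.08 and means of 3.60 to 3.82 in control and 3.72 to 4.00 in 4NQO-treated tongue. Acan, Matn1, Matn3 and Hapln1 were below the array median in all tongues. Comp, a matrix protein of cartilage and tendon, was above it in all 6, with means of 6.46 and 6.52 (difference 0.06). Sox9, also expressed in epithelium, was above it in all 6 as well and differed by 0.75 (unadjusted p = 0.031, limma). Col11a2 and Col24a1 differed by -0.26 and -0.07.

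The basement membrane collagens split in direction, and held both the lowest (Col4a6) and the highest (Col18a1) log2 difference of the 42 genes. The chains of Col4a5 and Col4a6 form a network in the basement membranes of epithelium and smooth muscle. Col4a6 read 5.00, 5.53 and 6.24 in control 1 to 3 and 4.48, 4.56 and 4.82 in 4NQO 1 to 3. The groups did not overlap, and the treated tongues lay near the array median. The log2 difference was -0.97 (95% interval -1.66 to -0.28), a 1.96-fold lower signal, with an unadjusted p of 0.012 and an adjusted p of 0.311 (limma). A second, dimmer probe set read 4.42, 4.59 and 5.08 in the controls and 4.35, 4.01 and 3.89 after 4NQO, again without overlap, and differed by -0.61 (unadjusted p = 0.021, limma). Without the 2 arrays of largest 3′ excess of Gapdh the difference of Col4a6 was -0.61, with an unadjusted p of 0.050 (limma).

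Col4a5, the neighbor of Col4a6, read 6.07, 5.95 and 6.54 in the controls and 5.77, 5.65 and 5.89 after 4NQO. It too was lower in every treated tongue, with a mean difference of -0.42 (-0.87 to 0.03; adjusted p = 0.508, limma). Its other probe set, dim in all tongues, differed by -0.04. The pair Col4a1 and Col4a2, whose chains make the common type IV network, overlapped between groups. Col4a1 read 9.95, 11.26 and 11.02 in the controls and 10.54, 10.33 and 10.77 after 4NQO. Col4a2 read 8.76, 9.76 and 9.53, and then 9.22, 8.63 and 9.25. In both genes control 1 was far below the other controls and 4NQO 2 was the lowest treated tongue. The differences were -0.19 (-0.93 to 0.54) and -0.31 (-0.97 to 0.34).

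Col4a3 and Col4a4 belong to the network known from the kidney glomerulus, and both were dim. Col4a4 read 4.24, 4.44 and 4.47 in the controls and 3.69, 3.92 and 4.10 after 4NQO, so that the groups did not overlap. Its difference was -0.48 (-0.84 to -0.11), with an unadjusted p of 0.017 and an adjusted p of 0.357 (limma). The 2 further probe sets of Col4a4 differed by -0.44 and 0.00. Col4a3 differed by 0.04.

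Col15a1 and Col18a1 encode the multiplexins, basement membrane collagens with interrupted helices, and the end of the collagen XVIII chain is released as endostatin. Col18a1 read 7.19, 8.09 and 8.45 in the controls and 8.57, 8.53 and 8.67 after 4NQO. All treated tongues were above all controls, although control 3 lay just below them. The log2 difference was 0.68 (-0.01 to 1.36), a 1.60-fold higher signal, with an adjusted p of 0.485 (limma). The second Col18a1 probe set read 6.46, 7.26 and 7.58 and then 8.11, 8.10 and 8.24, a 2.07-fold higher signal with an unadjusted p of 0.0045 and an adjusted p of 0.265 over the 34945 probe sets of single genes (limma). RefSeq gives Col18a1 start sites in 2 windows, and the probe sets were not assigned to either. Without control 1 the difference of the first probe set was 0.31, and without control 3 it was 0.95. Col15a1 read 6.97, 7.81 and 8.09 in the controls and 7.52, 7.53 and 8.09 after 4NQO, a difference of 0.09 (-0.61 to 0.79).

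**Figure D3:**
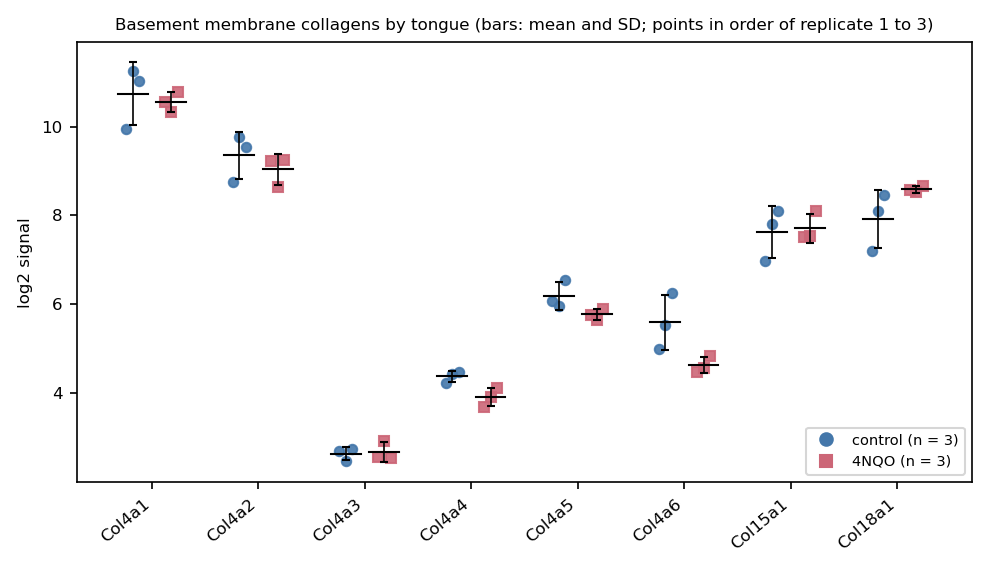
Log2 signal of the 8 basement membrane collagens (vertical axis) in 3 control and 3 4NQO-treated tongues, with mean and SD. The groups do not overlap for Col4a4, Col4a5, Col4a6 (4NQO lower) and Col18a1 (4NQO higher), and control 1 is the lowest tongue for Col4a1, Col15a1 and Col18a1.

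Of 12 partners of these collagens in the basement membrane, 8 were below 0 and the median was -0.15. The laminin chain of muscle, Lama2, differed by -0.51 (unadjusted p = 0.011, limma) and was the only one of them under 0.05. Lamb2, another laminin chain, differed by -0.23, Lama5 by -0.21 and the laminin linker Nid1 by -0.16. None passed the adjusted threshold.

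No FACIT collagen passed an unadjusted p under 0.05, and in none were the groups apart. Col12a1 and Col14a1 encode collagens that decorate type I fibrils. Col14a1 read 7.27, 6.61 and 8.37 in the controls and 6.14, 7.39 and 7.49 after 4NQO, the widest spread of the class. Its difference of -0.41 had an interval from -1.56 to 0.73 and turned to 0.07 without control 3. Col12a1 differed by 0.10 (-0.43 to 0.62), with 5.08 in 4NQO 2 and 5.96 in 4NQO 3. Col16a1 read 7.05, 7.34 and 7.37 in the controls and 7.06, 6.94 and 7.15 after 4NQO (difference -0.21, -0.57 to 0.15). Col22a1, a collagen of the muscle-tendon junction, differed by 0.18 (-0.55 to 0.91), and Col20a1 by -0.17 (-0.67 to 0.33). The 4 dim members, 3 chain genes of the cartilage collagen IX and Col19a1, differed by -0.14 to 0.17.

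The transmembrane class had a median of 0.19, and none of its genes passed an unadjusted p under 0.05. The median was 0.009 without control 1, 0.31 without control 3 and 0.012 without the dim gene Col13a1. Col17a1, the hemidesmosomal collagen of basal keratinocytes, read 10.16, 10.69 and 10.64 in control 1 to 3 and 10.77, 10.46 and 10.29 in 4NQO 1 to 3. The groups lay on top of each other, with a difference of 0.01 and an interval from -0.42 to 0.44. Col13a1, known from the neuromuscular junction, was dim and read 3.32, 4.12 and 4.45 and then 4.73, 4.33 and 4.47 (difference 0.55, -0.11 to 1.20). Col23a1 read 4.56, 5.22 and 5.41 and then 5.45, 5.33 and 5.54 (difference 0.37, -0.16 to 0.91). In both genes control 1 was the lowest tongue, and control 3 lay among the treated ones. Col25a1, the brain collagen found with amyloid, differed by -0.14 (-0.49 to 0.22).

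Col7a1, the anchoring fibril collagen, read 7.24, 7.87 and 7.86 in the controls and 8.07, 7.55 and 7.67 after 4NQO. The difference was 0.10 (-0.41 to 0.62), and control 1 was again the lowest tongue. Among 7 partners of collagen XVII in the hemidesmosome, 4 were above 0 with a median of 0.14, and none passed an unadjusted p under 0.05. The linker protein Dst differed by -0.46 and the epithelial laminin chain Lama3 by 0.30. Of 5 basal keratinocyte markers 4 were above 0, with a median of 0.29 and means from 10.99 to 11.47 in control and from 11.05 to 11.59 after 4NQO. Krt14 differed by 0.32 (unadjusted p = 0.037, limma) and Krt15 by -0.64. Their part in the values of Col17a1 and Col7a1 was not tested.

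**Figure D4:**
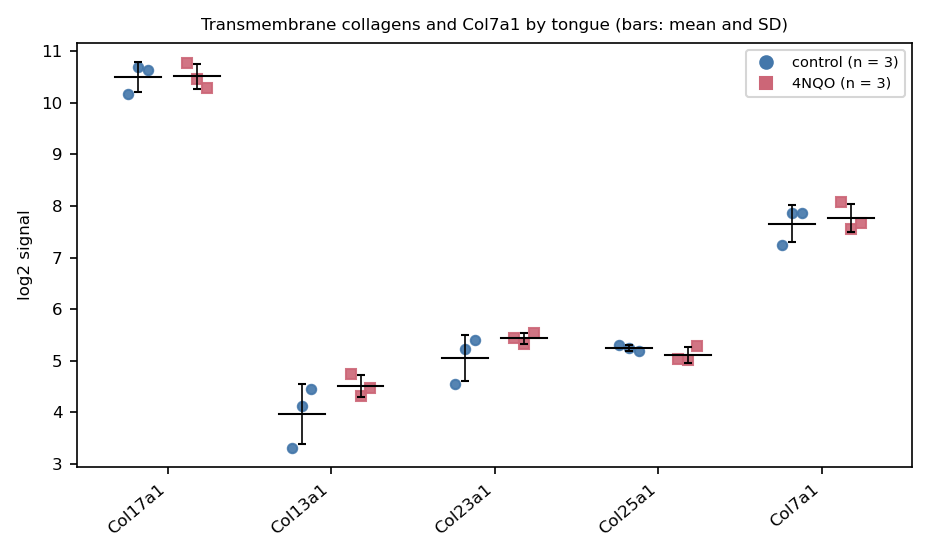
Log2 signal of the 4 transmembrane collagens and Col7a1 (vertical axis) in 3 control and 3 4NQO-treated tongues, with mean and SD. The groups overlap for all 5 genes, and control 1 is the lowest tongue for Col13a1, Col17a1, Col23a1 and Col7a1.

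Collagen VI forms beaded microfibrils around cells. Its 3 bright chain genes followed the tongues closely: Col6a1 read 9.21, 9.71 and 10.30 in the controls and 9.34, 9.38 and 9.87 after 4NQO. Col6a2 read 9.43, 10.11 and 10.41 and then 9.70, 9.52 and 10.30. Col6a3 read 8.82, 9.17 and 9.87 and then 8.93, 9.14 and 9.48. In all of them control 1 was the lowest and control 3 the highest tongue, and the differences were -0.21 (-0.85 to 0.43), -0.14 (-0.80 to 0.52) and -0.10 (-0.73 to 0.52). Each turned above 0 without control 3 (0.07, 0.07 and 0.19). Col6a4 and Col6a5 were dim and differed by -0.06 and 0.16.

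Of the short chain collagens, Col8a1 and Col8a2 encode the chains of collagen VIII, known from vessel walls and the cornea. Col8a1 differed by -0.19 (-0.58 to 0.19) and Col8a2 by -0.31 (-0.77 to 0.15). Col8a2 read 5.86, 5.69 and 6.06 in the controls and 5.50, 5.29 and 5.88 after 4NQO, and only 4NQO 3 reached the range of the controls. Col10a1, a marker of hypertrophic cartilage, was dim at 3.06, 3.11 and 3.06 and then 2.86, 2.74 and 3.04, without overlap (difference -0.20, -0.47 to 0.07). Col26a1 differed by -0.06.

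Genes that modify, assemble, bind or degrade collagen were counted in the same test, and none of them passed the adjusted threshold. Of 18 genes for hydroxylation, glycosylation and folding of the chains, 10 were below 0 (median -0.09). Ppib, the prolyl isomerase of the chain-modifying complex, differed by 0.33 and its partner Crtap by 0.39, with unadjusted p-values of 0.0497 and 0.064 (limma). Of 6 genes for propeptide removal, 4 were below 0 (median -0.30). Among these, Adamts3, a procollagen N-proteinase, differed by -0.48 (unadjusted p = 0.0052, limma) at signals below the array median in every tongue. The procollagen C-proteinase Bmp1 differed by -0.32. Of 4 crosslinking oxidases, 3 were below 0 (median -0.17), and Lox differed by -0.28.

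Among proteins that sit on fibrils, 12 of 13 were below 0, with a median of -0.18. None of them passed an unadjusted p under 0.05. Some genes stand in several lists, such as Dcn here and among the fibroblast markers, so the lists are not separate evidence of direction. Tnxb (tenascin X) differed by -0.40, the proteoglycan Bgn by -0.31 and the matricellular protein Postn by -0.22. Of 9 collagen receptors, 5 were below 0 (median -0.05), and the integrin chain Itgb1 differed by -0.29. Of 9 genes of collagen degradation, 6 were below 0 (median -0.12). Fap, a protease of activated fibroblasts, differed by -0.45 (unadjusted p = 0.047, limma), whereas the collagenase Mmp13 was dim and differed by 0.16. TGF-beta signalling, which drives collagen transcription in fibroblasts, had 7 of 13 genes below 0 (median -0.03). Its receptor gene Tgfbr2 differed by 0.53 and the transducer Smad3 by -0.50 (unadjusted p = 0.023 and 0.0094, limma).

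**Figure D5:**
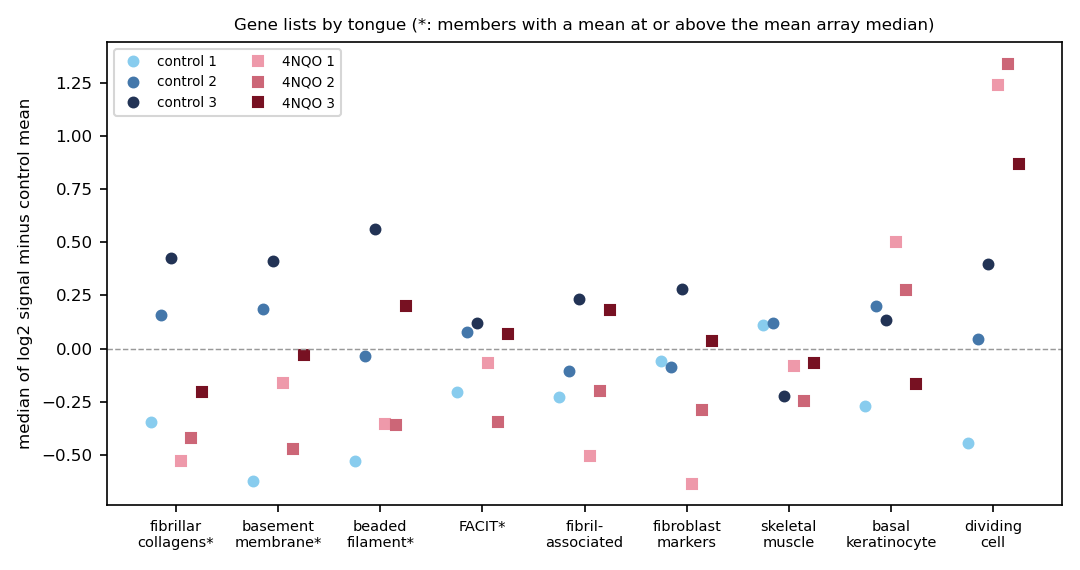
Median log2 signal of each gene list minus the control mean of its genes (vertical axis) by tongue, with circles for 3 controls and squares for 3 4NQO-treated tongues. Control 1 lies low and control 3 high in the fibrillar, basement membrane and beaded filament collagens. Of the 9 lists plotted only the dividing cell markers separate the groups. Among lists not plotted, the 3 short chain collagens and the 6 propeptide removal genes separate them by this median, with 4NQO lower.

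Most collagen genes were measured more than once. Of the 42 genes 27 had several probe sets, and in 15 of these all signs agreed. Of the 40 additional probe sets 19 were bright, and 17 of the 19 had the sign of the probe set used. The exceptions were those of Col27a1 (0.15 against -0.19) and Col23a1 (-0.10 against 0.37). For Col1a2, the 2 additional probe sets gave -0.20 and -0.35 with overlapping groups, so the separation of the groups held for the brightest of its 3 probe sets only. For Col5a1 they gave -0.53 and -0.46, further from 0 than the -0.27 of the probe set used. Second bright probe sets of Col1a1 (-0.09 against -0.44), Col5a2 (-0.06 against -0.38) and Col4a1 (-0.03 against -0.19) were nearer 0. Those of Col18a1 (1.05 against 0.68) and Col6a2 (-0.21 against -0.14) were further from 0.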

How the data were processed

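Total RNA of each tongue was extracted with Trizol, labelled with biotin and hybridized to 1 Affymetrix mouse array. Per the labels and the study's methods, the authors used Bioconductor packages to normalize the arrays, and deposited 1 log2 signal for each probe set. Their method of normalization was not given in the sources used here. No filter on dim genes was applied.

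Probe sets were named through the platform annotation. Those of 1 gene (34945 of 45101) were kept, and a gene was read from the probe set whose mean over the 6 arrays was highest. Groups were compared with limma 3.58.1 in R 4.3.3 (lmFit, and eBayes with an intensity trend) over 18193 genes, with Benjamini-Hochberg adjustment at 0.05. The code was tested on simulated data. The number of arrays limits the precision. Alternatives were quantile normalization, centring, leaving out the dimmer genes, other probe sets and variance models, and a block for the replicate number. Others were leaving out 1 array at a time, and significance analysis of microarrays (SAM), which the study used. The dimmer genes were those with a mean below the median of all gene means, a stricter cut than the one for bright genes. A fit that left out control 3 and 4NQO 2, the arrays with the largest 3′ excess of Gapdh, was chosen after seeing the data.

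The collagen genes and the 22 other gene lists were chosen with earlier results of these data known. Every collagen gene could be named, and up to 4 members of each other list with the smallest p. The cartilage markers Matn1 and Hapln1 and the muscle markers Myh1 and Myh2 fall outside this rule and were named after their values were seen.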

Additional observations from a re-analysis of the deposited data

How the results depend on the processing

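No collagen gene passed the adjusted threshold under any alternative limma run (count 0), and SAM called none. SAM used no adjusted p, and its cut was a median number of false positives under 1 (0.83 here). The count of all genes called was 24 and became 65 with centred arrays and 13 without genes below the median of all gene means. It was 15 with the probe set of largest variance, 47 with a robust trend and 81 with SAM. Without control 3 and 4NQO 2, whose 3′ excess of Gapdh was largest, it was 4. Leaving out 1 array gave 0 (without control 2) to 27, with 1 without 4NQO 2 and 10 without 4NQO 1. Collagen genes lower at an unadjusted p under 0.05 numbered 3, from 1 (without 4NQO 1) to 8 (without control 1) when 1 array was left out, and 0 without control 3 and 4NQO 2. It was 1 with the mean of all probe sets, with the probe set of largest variance and without genes below the median of all gene means. The last of these cuts leaves out Col4a6, which is bright. In the main fit, 2 of the 27 bright collagen genes were lower at an unadjusted p under 0.05. Collagen genes higher at that threshold numbered 1, with 0 to 3 under the alternatives.

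The deviations of same-numbered control and 4NQO arrays had correlations of mixed sign (r = 0.29, -0.51 and 0.048). With so few tongues per group, these correlations cannot decide whether the numbers pair the tongues. With the replicate block, 2 of all genes and 0 collagen genes were called.

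The median of the FACIT class was -0.10 and ranged from -0.13 to 0.067 when 1 array was left out. Without control 3 and 4NQO 2 it was 0.037, and that of the beaded filament class was 0.15. The log2 differences of Col1a1, Col1a2, Col3a1, Col5a1, Col5a2, Col5a3, Col11a1, Col4a2, Col4a4, Col4a5, Col4a6, Col18a1, Col16a1, Col13a1, Col8a1 and Col8a2 had 1 sign under every alternative run. A constant sign did not mean a constant size. Without control 3 and 4NQO 2 the difference was only -0.0023 for Col1a1, -0.020 for Col4a2 and -0.082 for Col8a2. That of Col5a2 was -0.061 with the probe set of largest variance. The difference of Col4a6, in contrast, stayed between -1.27 and -0.61. Differences of other genes changed sign. With the probe set of largest variance the values were 0.15 for Col27a1, -0.10 for Col23a1 and 0.14 for Col25a1. Over the mean of all probe sets Col25a1 was at 0.00088. Quantile normalization gave -0.030 for Col17a1. Without control 3 and 4NQO 2 the values were 0.055 for Col4a1, 0.13 for Col20a1, 0.15 for Col6a1, 0.23 for Col6a2 and 0.21 for Col6a3. The cause of these changes was not tested.

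When 1 array was left out, the ranges that crossed 0 were -0.59 to 0.067 for Col4a1, -0.24 to 0.32 for Col15a1, -0.12 to 0.32 for Col12a1, -0.81 to 0.067 for Col14a1, -0.073 to 0.46 for Col22a1, -0.16 to 0.12 for Col17a1, -0.10 to 0.21 for Col7a1, -0.47 to 0.071 for Col6a1, -0.42 to 0.072 for Col6a2 and -0.33 to 0.19 for Col6a3.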
